A study of Callithrix jacchus with 5 samples.

Results

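The levels of 8 imprinted genes were compared in pluripotent cells and fibroblasts of the common marmoset (Callithrix jacchus, a New World monkey). The genes were IGF2, IGF2R, PEG10, SGCE, PEG3, MEST, SNRPN and CDKN1C. They were found by pairing the Ensembl gene identifiers of the count table with gene symbols, and all 8 were present among 30811 gene identifiers. All 8 had already passed the comparison of fibroblasts with embryonic stem (ES) lines in an earlier analysis of these counts, which looked at fewer imprinted genes than the wider list below. Their direction in that comparison is therefore a description, and the number of them that passed carries no weight. All 8 were tested, and none was lost to the filter on low counts.

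RNA was sequenced from 5 cultures: 1 library of fibroblasts (E01F, P number 1 in the title), 1 library of induced pluripotent stem (iPS) cells, and 3 libraries of ES cells, 1 for each of the lines No40, DSY127 and No20 (P numbers 63, 17 and 45). The iPS cells were reprogrammed from fibroblasts with RNA, as the title of the series has it. Whether the sequenced fibroblasts are their parent cells is not stated, and the labels give no genotype or treatment for any library. Neither the fibroblasts nor the iPS cells have a replicate, so every test took its spread from the 3 ES lines. That spread was estimated with information shared between genes. Nothing in the counts separates the parental alleles, so all values are total levels.

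In human and mouse, an imprinted gene is transcribed mainly from the allele inherited from 1 parent, and methylation of a nearby control region set in egg or sperm marks which allele that is. IGF2, PEG10, SGCE, PEG3, MEST and SNRPN are expressed from the paternal allele, and CDKN1C from the maternal allele. IGF2R is expressed from the maternal allele in mouse, while in human its imprinting varies between individuals. Imprinted genes often act on growth, and imprints are watched in pluripotent cultures because they can be lost during culture or reprogramming.

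The total count was 58601185 in the fibroblast library, 5746449 in the iPS library and 34111715 to 46523012 in the ES lines, so the iPS library was the shallowest. Levels are given as CPM, counts divided by the library total after TMM scaling, as edgeR's cpm function gives them, and a count of 3 corresponded to 0.063 CPM in the fibroblasts, 0.507 CPM in the iPS cells and 0.061 to 0.0834 CPM in the ES lines. The labels were checked against cell type markers. The 9 pluripotency markers measured summed to 26.6 CPM in the fibroblasts, 5688 CPM in the iPS cells and 3203 to 6967 CPM in the ES lines. The 15 fibroblast and mesenchymal markers measured summed to 89410 CPM in the fibroblasts, 12340 CPM in the iPS cells and 1802 to 3099 CPM in the ES lines, and none of them was at 0 in any library. In the iPS library 7 of the 15 stood above all ES lines (26.5% of all genes did), 5 below (31.5%) and 3 within their range. The higher sum thus came from part of the list. In the iPS library the most abundant of the 7 were the collagens COL1A1 at 4922 CPM, COL1A2 at 3447 CPM, COL3A1 at 1684 CPM and COL5A2 at 809.9 CPM, named after their values were seen. COL1A2 and PRRX1 were called higher in the iPS library by edgeR, 5 of the 15 without line No20, and 0 without No40. Over all genes tested, the same fits called 19 higher, 256 without No20 and 0 without No40. Other marker lists were summed too. Trophoblast markers summed to 237.2 CPM in the iPS cells, against 10.7 to 35.9 CPM in the ES lines. Of the 3 measured, 1 stood above all ES lines, 1 below and 1 within. Blood markers summed to 25.7 CPM, against 2.95 to 7.11 CPM. The iPS sum was below all ES lines for endothelium and endoderm, and within their range for epithelium, muscle and neural markers. The part of any of these markers in the iPS values below was not tested.

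The 8 genes fell into 2 sets in the fibroblasts. IGF2, IGF2R, PEG10 and SGCE were higher than in any ES line, and PEG3, MEST, SNRPN and CDKN1C were lower than in any ES line, where 35.4% of all genes tested stood above all ES lines in the fibroblasts and 39% below. The iPS library lay on the ES side of the fibroblast value for all 8. That placement carries no weight, as the 8 were chosen for differing between this fibroblast library and the ES lines. In the iPS library IGF2 and IGF2R stood below all 3 ES lines and SNRPN above them, beyond counting error.

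**Figure D1:**
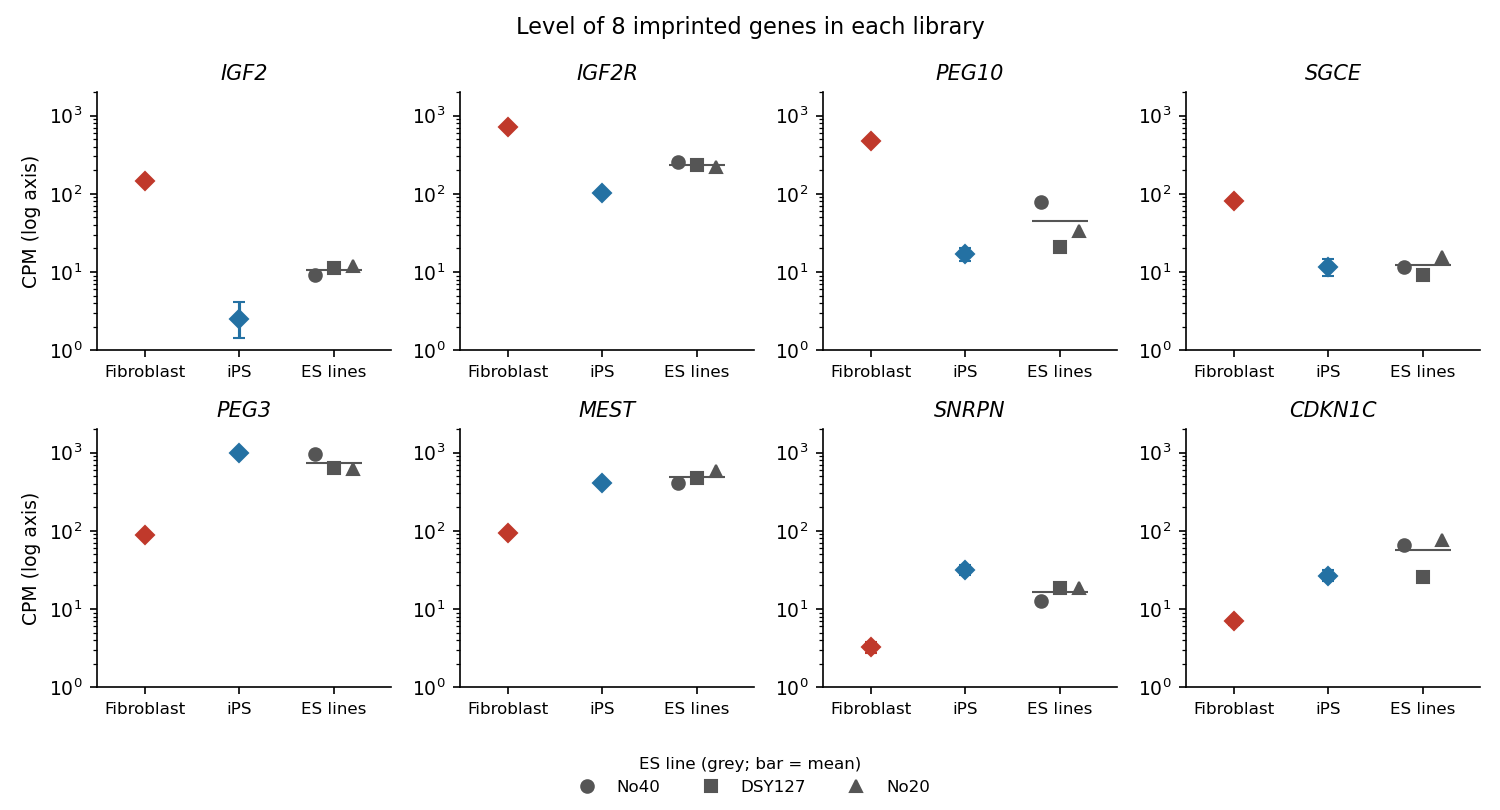
CPM (log axis) of each of the 8 genes in the fibroblast library (red), the iPS library (blue) and the 3 ES lines (grey symbols, horizontal bar at their mean). Bars on the single libraries are 95% exact Poisson intervals, which cover counting error only. IGF2, IGF2R, PEG10 and SGCE are highest in fibroblasts, and PEG3, MEST, SNRPN and CDKN1C lowest there.

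IGF2 encodes insulin-like growth factor 2, a fetal growth factor. Its level was 147 CPM in the fibroblasts, 2.54 CPM in the iPS cells, and 9.02, 11.15 and 11.9 CPM in lines No40, DSY127 and No20. The ES lines lay close together, with the fibroblasts far above and the iPS cells below all of them. The fitted log2 fold change was 3.78 ± 0.35 (SE) for fibroblasts over ES lines (adjusted p = 0.00215, edgeR quasi-likelihood test with Benjamini-Hochberg adjustment over all 17462 genes tested). Among those genes 8.8% were called higher and 9.28% lower in the fibroblasts at an adjusted p under 0.05, 18.1% in all. As the libraries are of bulk cultures, fewer cells that express a gene and less of its RNA per cell cannot be told apart here or in any result that follows.

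For iPS cells over ES lines the log2 fold change of IGF2 was -2.07 ± 0.49, with a 95% interval from -3.25 to -0.90 and an adjusted p of 0.223 in the edgeR test. The call depended on the tool, since DESeq2 gave an adjusted p of 0.0218 and limma voom 1. Over the 12 alternative fits the adjusted p ran from 0.0218 to 1 and the log2 fold change from -2.20 to -1.97. The value rests on 15 reads in the iPS library, whose exact Poisson interval is 1.42 to 4.18 CPM. With every library thinned to the depth of the iPS library, IGF2 had 50, 67 and 91 reads in lines No40, DSY127 and No20. Thinning keeps the expected share of each gene, so these counts restate the CPM at lower depth and are no further test. COL1A1 and COL1A2, named after their values were seen, were above the ES lines in the iPS library. IGF2 was below them, as were 5 of the 15 fibroblast and mesenchymal markers. Any link between these markers and the IGF2 level was not tested.

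IGF2R encodes the receptor that carries IGF2 to lysosomes for breakdown and sorts lysosomal enzymes. Its level was 710.2 CPM in the fibroblasts, 102.9 CPM in the iPS cells, and 255, 232 and 221 CPM in lines No40, DSY127 and No20. It varied least of the 8 genes among the ES lines, and its order across groups was that of its ligand. The log2 fold change was 1.59 ± 0.29 for fibroblasts (adjusted p = 0.0148, edgeR) and -1.20 ± 0.34 for iPS cells, with an interval from -2.01 to -0.38 (adjusted p = 0.344, edgeR).

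PEG10, derived from a retrotransposon and needed for the placenta in mouse, and SGCE, which encodes epsilon-sarcoglycan of the cell membrane, lie head to head on chromosome 8 of the files' coordinates, on opposite strands with 7658 bases between their models. PEG10 had 469 CPM in the fibroblasts, 16.9 CPM in the iPS cells, and 78.4, 20.9 and 33.7 CPM in lines No40, DSY127 and No20. SGCE had 80.3 CPM in the fibroblasts, 11.5 CPM in the iPS cells, and 11.5, 9.21 and 15.6 CPM in the same lines. Both were highest in fibroblasts, but only PEG10 varied several-fold among the ES lines.

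For fibroblasts over ES lines the log2 fold change was 3.40 ± 0.63 for PEG10 (adjusted p = 0.0146, edgeR) and 2.73 ± 0.42 for SGCE (adjusted p = 0.00826). For iPS cells it was -1.39 ± 0.78 for PEG10, with an interval from -3.24 to 0.46, and -0.08 ± 0.48 for SGCE, with an interval from -1.22 to 1.07. Neither passed in iPS cells (adjusted p = 0.687 and 0.98, edgeR). The PEG10 value in iPS cells depended on line No40, without which it was -0.72, and that of SGCE turned to 0.17 without No20.

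PEG3, a zinc finger factor that affects growth and maternal behaviour in mouse, had 89.1 CPM in the fibroblasts, 977 CPM in the iPS cells, and 966, 641 and 615 CPM in lines No40, DSY127 and No20. MEST, which encodes a protein of the hydrolase fold family, had 93.6 CPM in the fibroblasts, 406 CPM in the iPS cells, and 413, 470.5 and 583 CPM in the same lines. For both genes the fibroblasts stood well below every pluripotent library, and the counting interval of the iPS library reached the nearest ES line (952 to 1003 CPM for PEG3, 390.3 to 423 CPM for MEST).

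The log2 fold change in fibroblasts was -3.06 ± 0.47 for PEG3 (adjusted p = 0.00813, edgeR) and -2.38 ± 0.41 for MEST (adjusted p = 0.011). In iPS cells it was 0.40 ± 0.37 for PEG3, with an interval from -0.49 to 1.29, and -0.27 ± 0.35 for MEST, with an interval from -1.11 to 0.58 (adjusted p = 0.81 and 0.866, edgeR). These intervals still allow a change of more than 2-fold.

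SNRPN encodes SmN, an Sm protein of the splicing machinery best known from neurons. Its level was 3.26 CPM in the fibroblasts, 31.4 CPM in the iPS cells, and 12.6, 18.7 and 18.4 CPM in lines No40, DSY127 and No20. The iPS value was the highest of the 5, and its counting interval, 27.1 to 36.3 CPM, lay above all ES lines. The log2 fold change was -2.35 ± 0.57 in fibroblasts (adjusted p = 0.0336, edgeR) and 0.93 ± 0.47 in iPS cells, with an interval from -0.19 to 2.04 (adjusted p = 0.653). The fibroblast call was lost without line No40 (adjusted p = 0.0542), without DSY127 (0.0745) and with limma voom (0.0507). SNRPN has a close relative in SNRPB, with which it may share reads. SNRPB had 157 CPM in the fibroblasts, 351 CPM in the iPS cells and 267 to 361 CPM in the ES lines, and it was not called (named after its values were seen).

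CDKN1C encodes p57, an inhibitor of cyclin-dependent kinases that restrains proliferation. Its level was 6.95 CPM in the fibroblasts, 26.7 CPM in the iPS cells, and 66.0, 25.4 and 76.8 CPM in lines No40, DSY127 and No20. The iPS cells and DSY127 were close, below the other ES lines. The log2 fold change was -3.01 ± 0.76 in fibroblasts (adjusted p = 0.0386, edgeR) and -1.07 ± 0.68 in iPS cells, with an interval from -2.68 to 0.54 (adjusted p = 0.728). The fibroblast call was lost without line No40 (adjusted p = 0.114) and with limma voom (0.068).

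**Figure D2:**
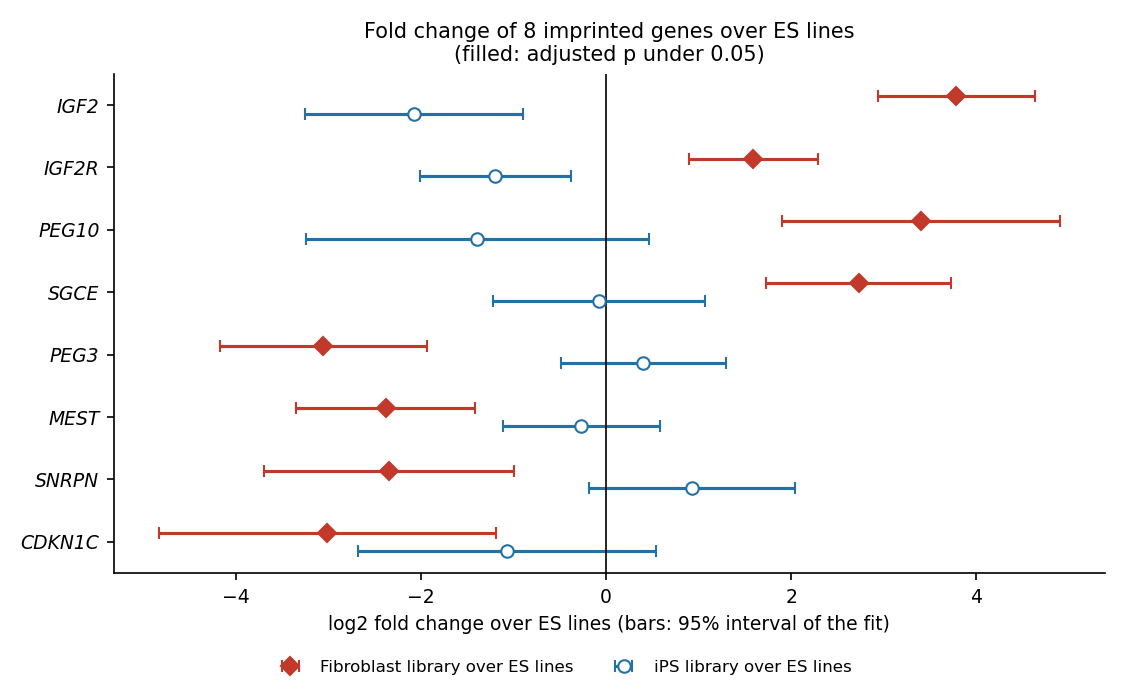
Log2 fold change over the ES lines of the 8 genes in the fibroblast library (red diamonds) and the iPS library (blue circles), with 95% intervals of the edgeR fit. Filled symbols have an adjusted p under 0.05. Both comparisons share the ES lines. IGF2 and IGF2R are the genes whose interval excludes 0 on opposite sides in fibroblasts and iPS cells. The intervals come from the test statistic, so this restates an unadjusted p under 0.05 in each comparison.

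None of the 8 genes was called between iPS cells and ES lines by edgeR, against 0.109% of all genes called higher and 0% called lower. Before adjustment, 0 were higher and 2 lower (IGF2 and IGF2R) at a p under 0.05, against 5.56% and 3.13% of all genes. The lower count was 4 without DSY127 and 1 with limma voom. After adjustment DESeq2 called 1 lower, IGF2, and limma voom 0. By level alone, 2 of the 8 stood above all ES lines in the iPS library and 4 below, where 26.5% of all genes stood above and 31.5% below. For 1 gene above (SNRPN) and 3 below (IGF2, IGF2R and PEG10) the counting interval of the iPS library also lay outside the ES values. For PEG10 the margin was small, since the interval ended at 20.6 CPM and DSY127, with its own counting error, had 20.9 CPM. At equal depth, which restates the CPM, the PEG10 counts were 100 in the iPS library and 127 in DSY127.

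Set directly beside each other, the iPS and fibroblast libraries differed in all 8 genes by more than counting error. The log2 ratio of iPS over fibroblast CPM was -5.86 for IGF2 (95% exact interval -6.70 to -5.14), -4.80 for PEG10, -2.80 for SGCE and -2.79 for IGF2R. It was 3.46 for PEG3, 3.27 for SNRPN, 2.12 for MEST and 1.94 for CDKN1C. With 1 library on each side these ratios have no replicate check, and the genes were chosen from a comparison that used the same fibroblast library.

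Among the ES lines the 8 genes differed in how steady they were. The highest line exceeded the lowest 3.76-fold for PEG10, highest in No40, and 3.02-fold for CDKN1C, lowest in DSY127. For the other genes the ratio was 1.15 for IGF2R, 1.32 for IGF2, 1.41 for MEST, 1.49 for SNRPN, 1.57 for PEG3 and 1.70 for SGCE. By the SD of log2 CPM over the lines, PEG10 and CDKN1C stood at the 84.6th and 80.8th percentile of all genes tested, and IGF2R at the 5.2nd. SGCE, the neighbour of PEG10, stood at the 42.4th.

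Levels of different genes were compared per kilobase of gene model. In fibroblasts the order of CPM per kilobase was PEG10 (480), IGF2 (104), IGF2R (81.0), SGCE (43.8), MEST (33.4), PEG3 (12.2), SNRPN (4.96) and CDKN1C (3.56). In iPS cells MEST (145) and PEG3 (134) came first, followed by SNRPN (47.9), PEG10 (17.3), CDKN1C (13.7), IGF2R (11.8), SGCE (6.27) and IGF2 (1.78). The ES lines also had MEST (174 ± 30.9, SD, n = 3) and PEG3 (101 ± 26.8) on top, and these did not overlap. PEG10 (45.4 ± 30.9), CDKN1C (28.7 ± 13.9), IGF2R (26.9 ± 1.95) and SNRPN (25.2 ± 5.28) overlapped in the ES lines, as did IGF2 (7.53 ± 1.06) and SGCE (6.61 ± 1.77) at the bottom. The models of PEG10 and SNRPN are short, at 978 and 657 bases, so their place in these orders depends on how much of each transcript the annotation holds.

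Imprinted genes lie in clusters, and the genes around each of the 8 were read from the coordinates in the files, of an unnamed genome build. IGF2 (ENSCJAG00000018424) spans 128286425 to 128304181 on chromosome 11 and CDKN1C (ENSCJAG00000011703) 127546497 to 127549176 on the same chromosome. PEG10 (ENSCJAG00000033086) spans 52822858 to 52823835, SGCE (ENSCJAG00000013426) 52831494 to 52909276 and MEST (ENSCJAG00000010760) 115748521 to 115768940 on chromosome 8. SNRPN (ENSCJAG00000003759) spans 1036204 to 1038495 on chromosome 6, IGF2R (ENSCJAG00000011908) 161083634 to 161207979 on chromosome 4 and PEG3 (ENSCJAG00000010044) 47422136 to 47474186 on chromosome 22. The model of IGF2 shares 214 exon bases with INS, which had at most 1 count in any library, and that of MEST 48 with COPG2 on the opposite strand.

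SNURF, the nearest named neighbour of SNRPN and made from the same transcript in human and mouse, ends 871 bases before the SNRPN model on the same strand. SNURF had 31.3 CPM in the fibroblasts, 212 CPM in the iPS cells, and 107.5, 133 and 127 CPM in lines No40, DSY127 and No20. As for SNRPN, the fibroblasts were lowest and the iPS cells highest. SNURF fell in the fibroblasts (log2 fold change -1.97 ± 0.38, adjusted p = 0.0173, edgeR) and was called in all 12 alternative fits. In iPS cells its log2 fold change was 0.79 ± 0.33 (adjusted p = 0.564). UBE3A, a ubiquitin ligase further along the cluster, had 195 CPM in the fibroblasts, 223 CPM in the iPS cells and 151 to 197 CPM in the ES lines, and a log2 fold change of 0.11 ± 0.34 in fibroblasts (adjusted p = 0.846).

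Between SNRPN and UBE3A the files hold 113 unnamed models of 67 to 110 bases, a stretch that in human carries arrays of small nucleolar RNAs made from the SNRPN transcript. This group was chosen after its values were seen. Its summed level was 4.51 CPM in the fibroblasts, 43.6 CPM in the iPS cells, and 38.1, 21.4 and 21.3 CPM in lines No40, DSY127 and No20. The sum was lowest in the fibroblasts and highest in the iPS cells, but single models did not all share that order. Of those tested, 12 stood above and 12 below all ES lines in the iPS library, where 26.5% and 31.5% of all genes did. The iPS library held 258 counts over the 113 models, and 32 of them had any count. Single placements there can therefore rest on few reads. Of the 31 models with enough reads to test, 0 were called by edgeR in the fibroblasts. Before adjustment 11 were lower at a p under 0.05 in that test (18.3% of all genes were). DESeq2 called 5 lower and limma voom 0, beside 2703 and 1009 of all 17462 genes tested. The count depended on the fit, as edgeR called 5 lower without No20, 3 on total counts alone, 3 with no filter and 1 under upper-quartile scaling. Over all genes tested those fits called 2366, 2016, 2002 and 1859 lower, in that order. Without No40, 18 were tested and 6 were lower before adjustment.

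Around IGF2, an unnamed model that starts 538 bases past its end on the same strand, ENSCJAG00000034748, had the same order of groups. This model had 79.1 CPM in the fibroblasts, 2.03 CPM in the iPS cells, and 4.55, 6.45 and 6.68 CPM in lines No40, DSY127 and No20, and rose in the fibroblasts (log2 fold change 3.75 ± 0.42, adjusted p = 0.00323, edgeR). A second unnamed model, ENSCJAG00000029089, lies 153.4 kb from IGF2. It had 228 CPM in the fibroblasts, 7.61 CPM in the iPS cells, and 2.07, 0.445 and 0.572 CPM in lines No40, DSY127 and No20, so that, unlike IGF2, it was higher in the iPS cells than in any ES line. It rose in the fibroblasts (log2 fold change 7.76 ± 0.80, adjusted p = 0.0027, edgeR) and was not called in iPS cells (2.86 ± 0.80, adjusted p = 0.324). Within 500 kb of IGF2, 3 of 12 genes tested were called higher in the fibroblasts, beside 8.8% of all genes, and 0 lower. Without No20 these were 4 higher and 1 lower. The third, ENSCJAG00000034115, lies 152.5 kb away and had 330 counts in the fibroblasts, 4 in the iPS cells, and 5, 0 and 1 in lines No40, DSY127 and No20. These 3 models carry no symbol and were named after their values were seen. Whether they are transcripts separate from IGF2 and from each other was not tested. TNNI2, a troponin of fast muscle and the nearest named gene on the side of IGF2 away from INS, was at 0.378 CPM in the fibroblasts, 0.169 CPM in the iPS cells and at most 0.111 CPM in any ES line.

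**Figure D3:**
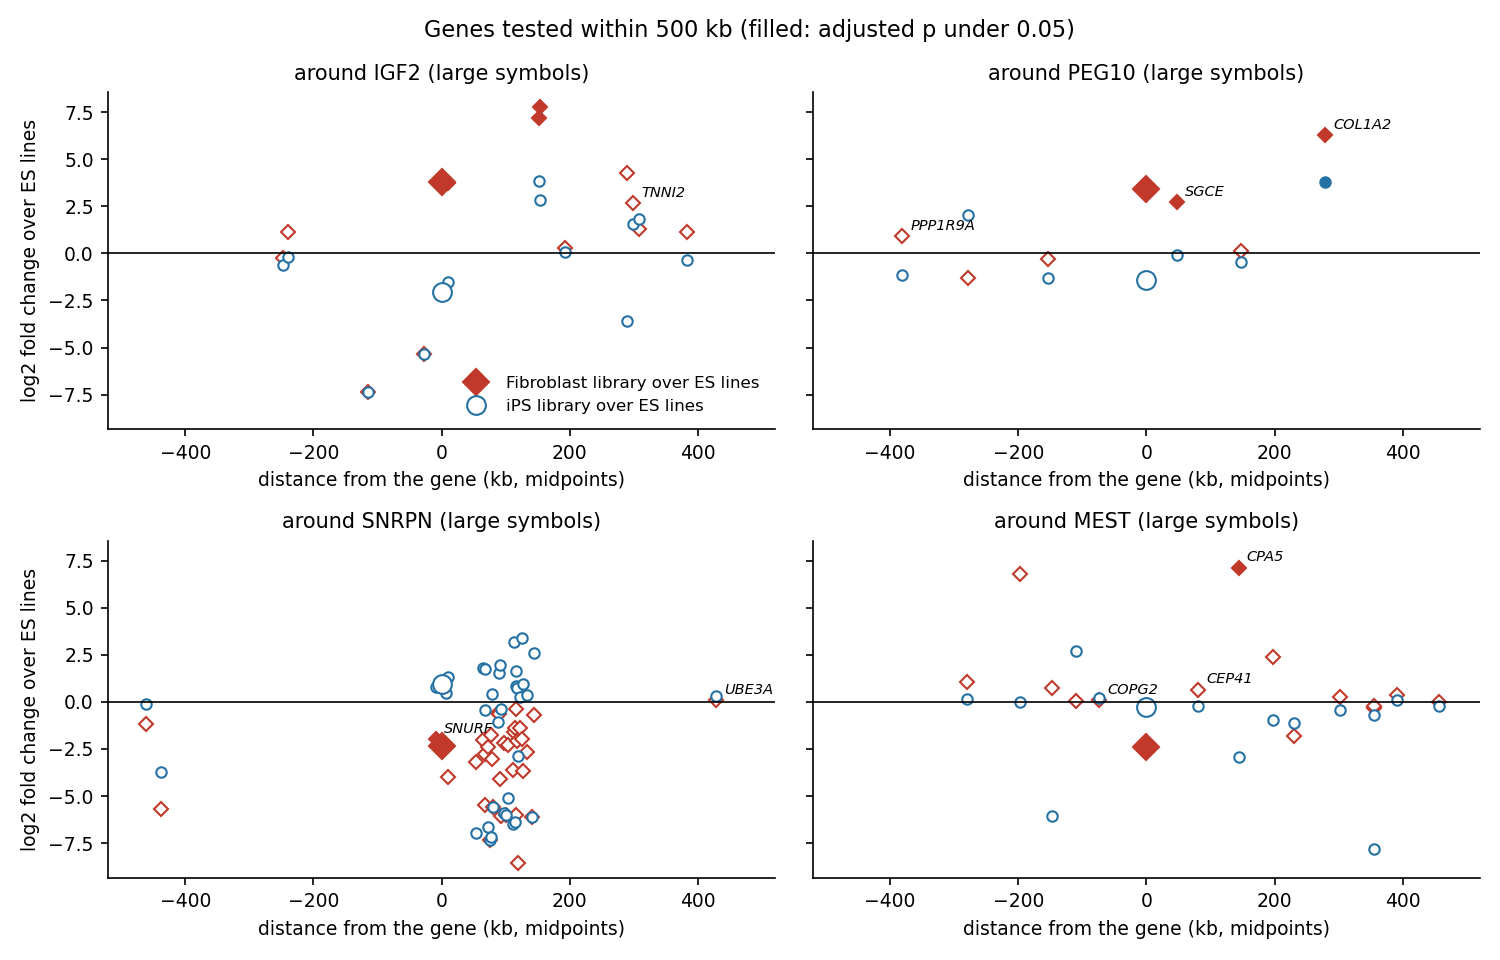
Log2 fold change over the ES lines of all genes tested within 500 kb of IGF2, PEG10, SNRPN and MEST, against distance in kb, for the fibroblast library (red diamonds) and the iPS library (blue circles). Large symbols are the gene itself and filled symbols have an adjusted p under 0.05. Folds of genes with no count in a group depend on the fit. SNURF lies with SNRPN, whereas COPG2 and CEP41 lie near 0 beside MEST.

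Near PEG10 and SGCE lies COL1A2, a chain of type I collagen, 278 kb from PEG10, with CASD1, a sialic acid acetyltransferase, between them. COL1A2 is named by distance alone and is not on the list of imprinted genes. COL1A2 was higher in both libraries, at 19650 CPM in the fibroblasts and 3447 CPM in the iPS cells, against 228 to 263 CPM in the ES lines. For iPS cells the fold on the log2 scale was 3.78 ± 0.27 (adjusted p = 0.0205, edgeR, and 0.32 without No40), while SGCE and PEG10 were not above the ES lines there. CASD1 had 47.4 CPM in the fibroblasts, 31.4 CPM in the iPS cells and 41.9 to 43.7 CPM in the ES lines (0.14 ± 0.36 for fibroblasts on the log2 scale). PPP1R9A, on the far side of PEG10, had 23.7 CPM in the fibroblasts, 5.58 CPM in the iPS cells and 7.29 to 15.2 CPM in the ES lines (0.92 ± 0.56, adjusted p = 0.297).

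Next to MEST, COPG2, a coat protein of Golgi vesicles, had 50.9 CPM in the fibroblasts, 54.6 CPM in the iPS cells and 43.8 to 51.4 CPM in the ES lines. The fibroblast value over ES lines was 0.09 ± 0.36 (log2 fold change), and that of CEP41, a centrosomal protein on the other side, was 0.65 ± 0.44. CPA5, a carboxypeptidase 143.6 kb away, was called higher in the fibroblasts, where it had 171 counts, against 0 in the iPS cells and 3, 0 and 0 in lines No40, DSY127 and No20. The 14 genes tested around PEG3 held 1 called, beside 18.1% of all genes. The one called was ENSCJAG00000020288, without a symbol and named after its values were seen. It had 8.44 CPM in the fibroblasts, 3.04 CPM in the iPS cells and 1.46 to 1.98 CPM in the ES lines (edgeR adjusted p = 0.0409, log2 fold change 2.36 ± 0.61), and was not called without No40 (0.0954), without DSY127 (0.0702), under upper-quartile scaling, on total counts alone or at the depth of the iPS library. ZNF71, the nearest named zinc finger gene, had 9.98 CPM in the fibroblasts, 19.6 CPM in the iPS cells and 9.77 to 15.4 CPM in the ES lines. USP29, on the other side of PEG3, had no count in the fibroblasts, 4 in the iPS cells and 0 to 4 in the ES lines, too few to test.

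Near IGF2R and CDKN1C edgeR called 0 genes in fibroblasts with all libraries and TMM factors, beside 18.1% of all genes. Of 9 genes tested around IGF2R, 2 were lower at an unadjusted p under 0.05, beside 18.3% of all genes. There 1 was called lower by edgeR on total counts alone and without No20, 1 by DESeq2 and 0 by limma voom. Of 10 around CDKN1C, 1 was higher at an unadjusted p under 0.05, beside 15.7% of all genes, but 0 without No40. On total counts alone or under upper-quartile scaling, 0 were higher and 1 lower. DESeq2 and limma voom called 0 of the genes around CDKN1C. PNLDC1, a trimmer of piRNAs and the nearest named gene before IGF2R, had 1.93 CPM in the fibroblasts, 144 CPM in the iPS cells, and 15.95, 35.6 and 3.75 CPM in lines No40, DSY127 and No20 (log2 fold change 2.97 ± 0.92 in iPS cells, adjusted p = 0.39). SLC22A2, on the other side of IGF2R, had counts in the iPS library alone, 4 in all. KCNQ1 and SLC22A18, on the sides of CDKN1C, were at most 1.11 CPM in any library.

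**Figure D4:**
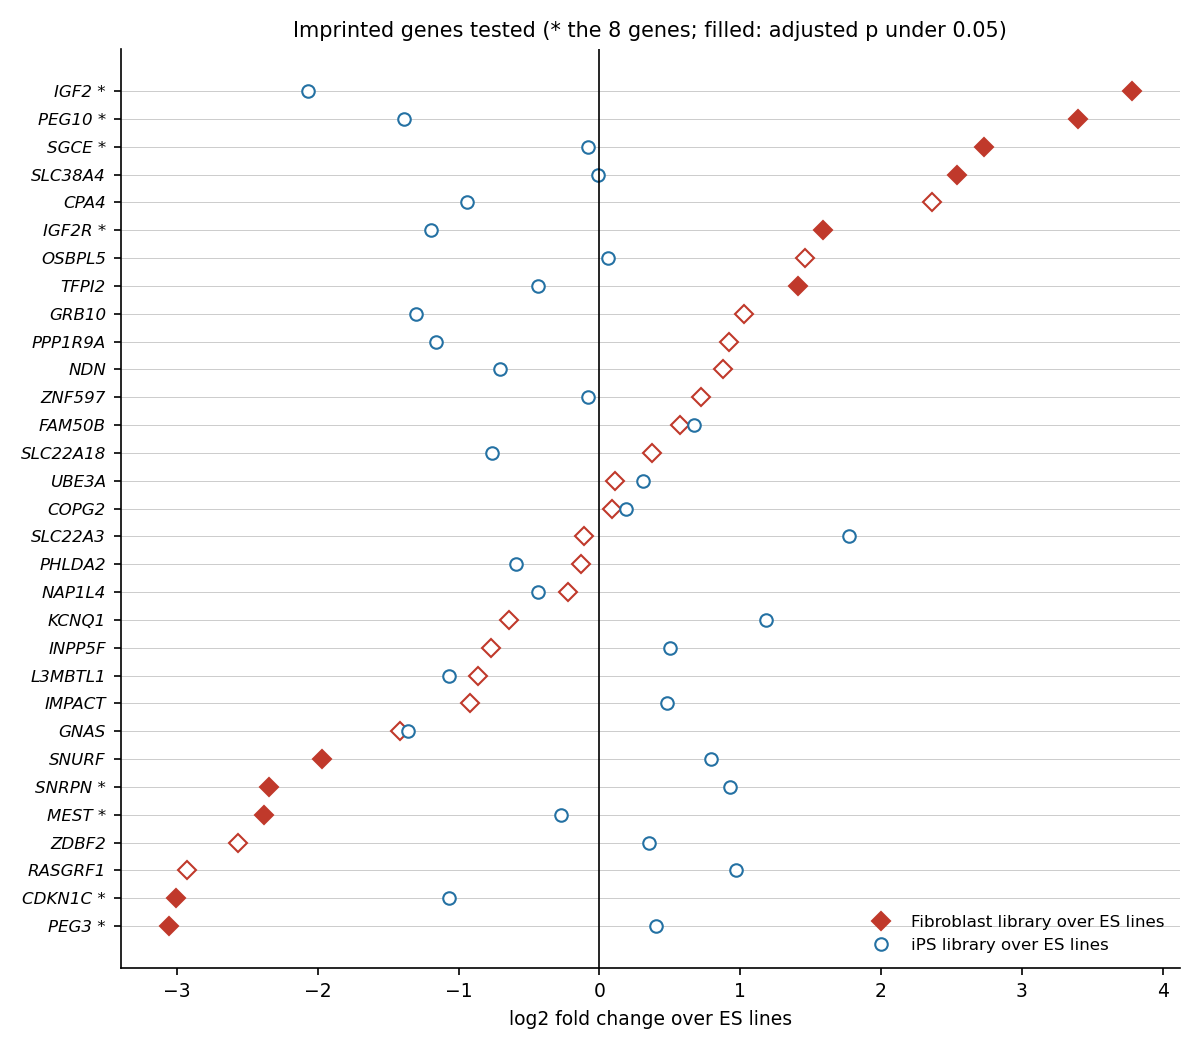
Log2 fold change over the ES lines of the 31 imprinted genes tested, ordered by the fibroblast value, in the fibroblast library (red diamonds) and the iPS library (blue circles). Asterisks mark the 8 genes, and filled symbols have an adjusted p under 0.05. Beyond the 8, the fibroblast symbols of SLC38A4, TFPI2 and SNURF are filled, and no iPS symbol is.

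The 8 genes were set in a wider list of 59 genes imprinted in human or mouse, of which 34 matched an identifier and 31 were tested. In the fibroblasts 6 of the 31 were called higher and 5 lower, with a median log2 fold change of 0.09 beside -0.15 for all genes. The sign of that median depended on the scaling and the filter, as it was -0.29 on total counts alone, -0.17 under upper-quartile scaling and -0.05 with no filter. Across all genes 8.8% were higher and 9.28% lower. The 8 were chosen for passing, so neither count is evidence about imprinted genes. Besides the 8, 2 of the other 23 rose and 1 fell. SLC38A4, an amino acid transporter expressed from the paternal allele in mouse, rose to 195 CPM in the fibroblasts, against 38.0, 18.8 and 43.6 CPM in lines No40, DSY127 and No20 (adjusted p = 0.0146, edgeR, log2 fold change 2.54). It was not called without No40 (adjusted p = 0.0591). TFPI2, a protease inhibitor, rose to 217 CPM in the fibroblasts, against 64.0 to 90.9 CPM in the ES lines (edgeR adjusted p = 0.0353, log2 fold change 1.41), but not without No40 (0.0623), without DSY127 (0.0548), nor under upper-quartile scaling or on total counts alone. SNURF, described above, was the one that fell. It shares a transcript with SNRPN in human and mouse, so its fall is not independent of the 8.

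By parental allele in human or mouse, 4 of 15 genes expressed from the paternal allele were higher and 4 lower in the fibroblasts, and 2 of 13 expressed from the maternal allele were higher and 1 lower. Beside 8.8% and 9.28% of all genes, these counts carry no weight, since 8 of the 11 calls are the genes chosen for passing. In iPS cells 0 of the 31 were called by edgeR, with 1 higher and 3 lower at an unadjusted p under 0.05 (5.56% and 3.13% of all genes). That became 0 higher without any 1 of the ES lines or on total counts alone, and 5 lower without DSY127. After adjustment DESeq2 called 1 lower, IGF2, and limma voom 0. NDN and ZDBF2, paternally expressed genes, had 48.1 and 8.59 CPM in the fibroblasts, 15.9 and 65.1 CPM in the iPS cells, and 19.4 to 30.6 and 14.5 to 93.3 CPM in the ES lines, and neither was called. Both were named after their values were seen.

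The partners of the 8 genes were examined in the same fit. Of 13 genes of the IGF axis tested, 4 were higher and 2 lower in the fibroblasts (8.8% and 9.28% of all genes), IGF2 and IGF2R among them by choice. Beside IGF2 and IGF2R, IGFBP6, a binding protein that prefers IGF2, rose to 159 CPM, against 4.28 to 9.40 CPM in the ES lines, with 3.04 CPM in the iPS cells. Its log2 fold change in fibroblasts was 4.63 ± 0.48 (adjusted p = 0.00273, edgeR). IGF2BP1, which binds IGF2 messenger RNA, fell to 51.4 CPM in the fibroblasts, against 184 to 278 CPM in the ES lines (-2.10, adjusted p = 0.02). It stood at 129.7 CPM in the iPS cells. The others, named after their values were seen, were the receptor substrates IRS1, higher, and IRS4, lower. IRS1 had 69.1 CPM in the fibroblasts, 6.42 CPM in the iPS cells and 13.9 to 25.8 CPM in the ES lines. IRS4 had no count in the fibroblasts, and 4.56 CPM in the iPS cells and 9.45, 2.39 and 1.08 CPM in lines No40, DSY127 and No20. IRS1 was not called without No40 or DSY127, under upper-quartile scaling, on total counts alone or at the depth of the iPS library, nor IRS4 without No40, with limma voom or at that depth. IGF1R, the signalling receptor for IGF2 and also named after its values were seen, had 222 CPM in the fibroblasts, 33.6 CPM in the iPS cells, and 109, 29.4 and 52.05 CPM in lines No40, DSY127 and No20 (1.80, adjusted p = 0.0946). Without No20, 7 genes of the axis were higher.

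Of 10 genes of the sarcoglycan and dystroglycan complex tested, 5 were higher and 1 lower in the fibroblasts, where 8.8% and 9.28% of all genes were, and SGCE is among the 5 by choice. With SGCE rose SGCD, delta-sarcoglycan, at 38.1 CPM in the fibroblasts, while it had 0.503 to 0.853 CPM in the ES lines. The log2 fold change was 5.91 for SGCD (adjusted p = 0.00212, edgeR). UTRN, which encodes utrophin (2.89), and DTNA, alpha-dystrobrevin (3.69), rose too, as did SGCB, beta-sarcoglycan (2.97). SGCB was named after its values were seen. In the iPS cells SGCD stood at 7.95 CPM, above all ES lines (log2 fold change 3.65, adjusted p = 0.0822, and 0.015 without No20), whereas SGCE was within their range.

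Of 10 Sm and related splicing proteins tested, 2 fell in the fibroblasts, beside 9.28% of all genes. SNRPN is 1 of the 2 by choice, and the other was SNRPD3 (log2 fold change -1.73, adjusted p = 0.0457, edgeR). In this list 9 stood below all ES lines, as 39% of all genes did. SNRPD3 was not called without DSY127 (adjusted p = 0.105), when 0 of the list were, and 4 were called with total counts alone. Of 4 inhibitors of cyclin-dependent kinases, 1 was lower and 1 higher, beside 9.28% and 8.8% of all genes. The lower one was CDKN1C, in the list by choice, and the higher one CDKN2B (2.51, adjusted p = 0.0282, edgeR). Without No40 neither was called. CDKN2B, which encodes p15, was also not called with total counts alone or at the depth of the iPS library. Of 11 genes that keep imprints or methylation, 4 fell and 1 rose, beside 9.28% and 8.8% of all genes. The methyltransferases DNMT3B (log2 fold change -6.37) and DNMT3A (-2.79), the helicase HELLS (-2.50) and TRIM28, a corepressor that protects imprints (-1.72), fell, and DNMT1 rose (2.59). TRIM28 was named after its values were seen. In the iPS cells DNMT1, which copies methylation at replication, stood at 10.99 CPM, against 28.7, 37.4 and 73.05 CPM in lines No40, DSY127 and No20 (-2.08, adjusted p = 0.402). Without No40, 2 of the list fell and 0 rose, and without DSY127 TRIM28 was not called (adjusted p = 0.114). In iPS cells edgeR called 0 genes in these 5 lists, beside 0.109% of all genes, and limma voom 0. At an unadjusted p under 0.05, 3 were higher and 5 lower (5.56% and 3.13% of all genes). IGF2 and IGF2R, already counted among the 8, are 2 of the 5 lower. The lists held 13, 10, 10, 4 and 11 genes tested, in the order given here. With no filter or without No20 edgeR called 1 of the sarcoglycan list higher. DESeq2 called 2 of the sarcoglycan list higher, and 1 of the IGF axis and 1 of the methylation list lower.

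For each of the 8 genes the most similar patterns over the 5 libraries were sought among 10124 named genes, by the largest difference in any library between log2 CPM values centred on the gene's mean. The nearest to IGF2 was MFRP, at most 0.29 apart, then SCUBE3 (0.42). The nearest to IGF2R were LMF1 (0.17) and EMID1 (0.20), to PEG10 IGDCC4 (0.43) and IFI6 (0.44), and to SGCE BEND6 and SMYD2 (0.17 each). The nearest to PEG3 were GSPT2 and CHRNA9 (0.19 each), to MEST CARD14 (0.22) and PHYHD1 (0.23), to SNRPN GALNT13 (0.28) and IL18 (0.30), and to CDKN1C ST6GALNAC3 (0.24) and MDGA2 (0.29). MFRP had 2 reads in the iPS library, under the floor of 3, so its likeness to IGF2 there is not measured. None of the 16 is on the list of imprinted genes.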

How the data were processed

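Raw counts of reads per gene were deposited by the authors as a series table and as single files for the 5 libraries, and the values were identical. Per the submitters' processing notes, the tools were featureCounts 1.5.2, STAR 2.5.3a and Trim Galore 0.4.0, given without roles. Neither the build nor the treatment of strand and of multi-mapping reads is stated in these sources, so overlapping genes and close relatives may share reads. Of 30811 identifiers, 12660 (41.1%) matched a symbol.

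The analysis used edgeR 4.0.16 in R 4.3.3 (filterByExpr, TMM factors, glmQLFit and glmQLFTest, with fibroblasts, iPS cells and ES lines as levels and 2 residual degrees of freedom), with DESeq2 1.42.0 and limma 3.58.1 as alternatives. For the fibroblast and iPS libraries the spread of the ES lines was assumed, so p-values hold no spread within those groups. The edgeR fit moderates the spread of each gene with that of the other genes. Its p-values and 95% intervals therefore rest on more than the values of that gene in the 3 lines. At the same SE, 2 residual degrees of freedom alone would give wider intervals. CPM per kilobase divides by the length of the gene model. The 95% exact Poisson intervals cover counting error only. The steps were tested on simulated data, with every library drawn from the mean ES profile and a common spread, apart from genes changed on purpose. That setting cannot show whether the fibroblast and iPS libraries share the spread of the ES lines.

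The 8 genes, the gene lists and the tests were chosen with earlier results of these data known. Named genes are the 8, list members and neighbours within 500 kb that passed (for the partner lists, up to 4 with the smallest adjusted p), the nearest named gene on each side, and for each of the 8 the 2 most similar genes with a mean of at least 1 CPM. Log2 CPM used a prior count of 2. Alternatives were 3 other scalings (upper-quartile factors, RLE factors, library totals only), no filter and a stricter one, DESeq2, limma voom, leaving out each ES line or the library not compared, and, added after seeing the data, thinning every library to the iPS total. One result of the sarcoglycan and dystroglycan list is not reported here.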

Additional observations from a re-analysis of the deposited data

How the results depend on the processing

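Of the 8 genes, all kept their direction in fibroblasts under the 12 alternatives, and IGF2, IGF2R, PEG10, SGCE, PEG3 and MEST kept their call. For genes called in fibroblasts, leaving out 1 ES line gave 924 to 2184 higher and 818 to 2366 lower (fewest without No40), and lower calls numbered 2703 with DESeq2 and 1009 with limma voom. Imprinted genes called lower numbered 3 with limma voom and 3 to 6 without 1 line. In iPS cells, genes called higher numbered 198 with no low-count filter, 348 with DESeq2, 5 with limma voom, 101 at the depth of the iPS library and 0 to 256 without 1 ES line (0 without No40, 41 without DSY127, 256 without No20), beside 19 in the edgeR test. Genes called lower there, 0 in that test, numbered 6, 68 and 1 with no filter, DESeq2 and equal depth, and 0 to 12 without 1 line, while DESeq2 called 1 imprinted gene lower. The causes were not tested. Total counts alone moved the median log2 fold change over all genes in fibroblasts to -0.54 and upper-quartile factors to -0.41, beside -0.15, and the split of calls in fibroblasts to 1066 higher and 2016 lower, and 1201 higher and 1859 lower, beside 1537 and 1620. With limma voom it was 1674 higher and 1009 lower. No paired analysis was possible because the groups share fewer than 2 replicate numbers and only the ES lines are replicated.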
